A study of Mus musculus with 8 samples.

Results

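The ribosomal DNA-like locus of chromosome 17 was defined by 4 annotated genes, Gm42418, AY036118, CT010467.1 and Gm26917, out of 55450 genes in GENCODE release M21 for the mouse build mm10. Their bodies together fill chr17:39843013-39848827, a stretch of 5815 bp, and adding 20 kb on each side gave a locus of 45815 bp at chr17:39823013-39868827. Peaks of RNA:DNA hybrid enrichment that overlapped the locus by at least 1 bp were its members. There were 9 such peaks of 87613 for GFP mock, 8 of 60219 for GFP DOX, 7 of 91097 for Cre mock and 6 of 105081 for Cre DOX. The locus was picked out because of the high rank of its main peak, so the ranks and listed values of that peak are given as a description and carry no test.

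Ribosomal RNA is transcribed by RNA polymerase I from long tandem arrays of ribosomal DNA, and a single precursor is cut into the small subunit rRNA and the large subunit rRNAs, with external and internal transcribed spacers removed. The arrays are GC-rich, are transcribed at a very high rate and are a classical site of R-loops, in which nascent RNA anneals to the template strand and leaves the other strand unpaired. Genome builds leave most of the arrays out, and reads from them can then align to the few rDNA-like pieces that are present on assembled chromosomes.

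The data came from DNA-RNA immunoprecipitation sequencing (DRIP-seq) of 1 line of Rtel1F/F;WT RNH1-GFP mouse embryonic fibroblasts (MEFs). All groups carried loxP-flanked alleles of Rtel1, which codes for a DNA helicase active in telomere maintenance and DNA replication, and a doxycycline-driven human WT RNaseH1 joined to GFP, an enzyme that cuts RNA when it is paired with DNA. GFP cells were infected with adenovirus that expressed GFP alone, and Cre cells with adenovirus that expressed Cre and GFP. DOX cells received 2 µg/ml doxycycline 48 h after infection and were collected 48 h later, and mock cells received none. The 4 groups are called GFP mock, GFP DOX, Cre mock and then Cre DOX, and values are listed in this order. Each had 1 DRIP library, pooled from 3 immunoprecipitations with the hybrid-specific antibody S9.6, and 1 list of peaks. The 4 matching input samples were not analysed here. With 1 library a group there was no replicate error, no test between groups was possible, and positions were compared between lists but listed values only within a list. The lists cannot check the deletion itself: the Rtel1 body held 0 peaks in either GFP list, 2 peaks (mock) and 1 peak (DOX) in the Cre lists. The number of reads per library is unknown from the lists.

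The member genes are annotations of a piece of rDNA. CT010467.1, Gm42418 and AY036118 overlap one another, and Gm26917 overlaps none of them. Gm26917 is a long intergenic non-coding RNA gene on the plus strand (chr17:39843013-39846341, 3329 bp), which ends 12 bp before the small subunit sequence. CT010467.1 is annotated as an rRNA gene on the minus strand (chr17:39846353-39848827, 2475 bp). Gm42418, on the plus strand (chr17:39846958-39848788, 1831 bp), and AY036118, on the minus strand (chr17:39847113-39848035, 923 bp), are long non-coding RNA genes that lie inside the span of CT010467.1. RefSeq gives AY036118 other limits (chr17:39848112-39898385), which begin 597 bp beyond the widest main peak, so the bases counted for this gene hold for the GENCODE position only. RefSeq places a small subunit rRNA pseudogene here, Rn18s-rs5, on the plus strand (chr17:39846354-39848202, 1849 bp), and gives Gm42418 as a synonym of it. Because DRIP peaks carry no strand, a peak here cannot be assigned to the plus-strand or the minus-strand genes.

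The main peak of the locus lay on the small subunit sequence in all 4 lists, and its shared part, chr17:39846684-39847404 (721 bp), is called the core below. Its first 300 bases are printed because they belong to the stretch common to the 4 main peaks and because a near-identical stretch exists on chromosome 6. Both are written 5′ to 3′ on the plus strand, from RefSeq's GRCm38.p6 sequence (mm10), and capitals mark the bases at which they differ.
Core, chr17:39846684-39846983: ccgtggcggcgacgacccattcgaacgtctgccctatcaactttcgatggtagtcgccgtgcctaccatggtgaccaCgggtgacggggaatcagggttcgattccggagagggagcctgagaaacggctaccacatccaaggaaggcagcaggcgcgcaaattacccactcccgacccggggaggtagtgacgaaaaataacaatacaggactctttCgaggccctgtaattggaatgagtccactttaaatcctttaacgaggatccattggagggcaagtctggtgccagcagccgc
Chromosome 6 copy, chr6:3200773-3201072: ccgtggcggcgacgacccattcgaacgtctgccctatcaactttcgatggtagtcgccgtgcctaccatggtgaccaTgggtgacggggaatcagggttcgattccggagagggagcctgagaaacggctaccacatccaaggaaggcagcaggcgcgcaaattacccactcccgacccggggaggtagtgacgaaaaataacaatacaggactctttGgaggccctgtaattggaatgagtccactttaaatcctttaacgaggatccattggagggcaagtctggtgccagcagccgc
Counted from 1 at the first base of the core, the differences are C78T and C219G, with the chromosome 17 base first.

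The edges of the main peak nearly coincided in the GFP lists and lay further out in the Cre lists. In GFP mock it spanned chr17:39846684-39847407 (724 bp) and in GFP DOX chr17:39846683-39847404 (722 bp), so that the left edges were 1 bp apart and the right edges 3 bp apart. In Cre mock it spanned chr17:39846662-39847449 (788 bp), and in Cre DOX chr17:39846584-39847514 (931 bp). The Cre DOX peak was the widest and contained the other 3, with its edges up to 100 bp (left) and 110 bp (right) from theirs. This order of edges was not particular to the locus. A high-scoring peak of chromosome 19 spanned chr19:8252178-8252358 in GFP mock and chr19:8252178-8252359 in GFP DOX. In Cre mock it spanned chr19:8252152-8252384 and in Cre DOX chr19:8252072-8252465. Not every peak did so, as that in Lars2 on chromosome 9 began furthest left in GFP mock. The median peak was 295 bp (mock) and 351 bp (DOX) wide in GFP cells and 343 bp (mock) and 513 bp (DOX) in Cre cells, so the main peak was wider than the median in every list. The core made up 99.6% (mock) and 99.9% (DOX) of the peak in GFP cells and 91.5% (mock) and 77.4% (DOX) in Cre cells. It began 330 bp after the start of Rn18s-rs5 and ended 798 bp before its end, so in no list did the peak reach either end of the small subunit sequence.

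Its listed score, which is 10 times the −log10 q-value of the peak caller rounded down, was 1697 (mock) and 1615 (DOX) in GFP cells and 1738 (mock) and 1445 (DOX) in Cre cells. It was the highest-scoring peak of the GFP mock and GFP DOX lists, the peak of rank 2 in Cre mock and of rank 3 in Cre DOX, and the highest on chromosome 17 in all 4. The next score on chromosome 17 was 638 (mock) and 722 (DOX) in GFP cells and 794 (mock) and 748 (DOX) in Cre cells. The peaks that outscored it in the Cre lists included the mitochondrial chromosome in Cre DOX, described with the genes of like rank.

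Fold enrichment, that is, signal over the background which the caller estimated nearby, placed the same peak lower. It was 7.35 (mock) and 6.98 (DOX) in GFP cells and 7.07 (mock) and 6.12 (DOX) in Cre cells. The rank by fold was 419, 307, 528 and 257 in the same order, and 23, 13, 21 and 16 among the peaks of chromosome 17. Peaks whose fold was within 5% of it had a median score of 101 (mock) and 88 (DOX) in GFP cells and 93 (mock) and 83 (DOX) in Cre cells. The peak thus stood within the best 0.580% of its list by fold but not at the top, as it did by score, and neither can be turned into a read number from the lists. By width it ranked 11478 (mock) and 12073 (DOX) in GFP cells and 15007 (mock) and 27034 (DOX) in Cre cells.

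**Figure D1:**
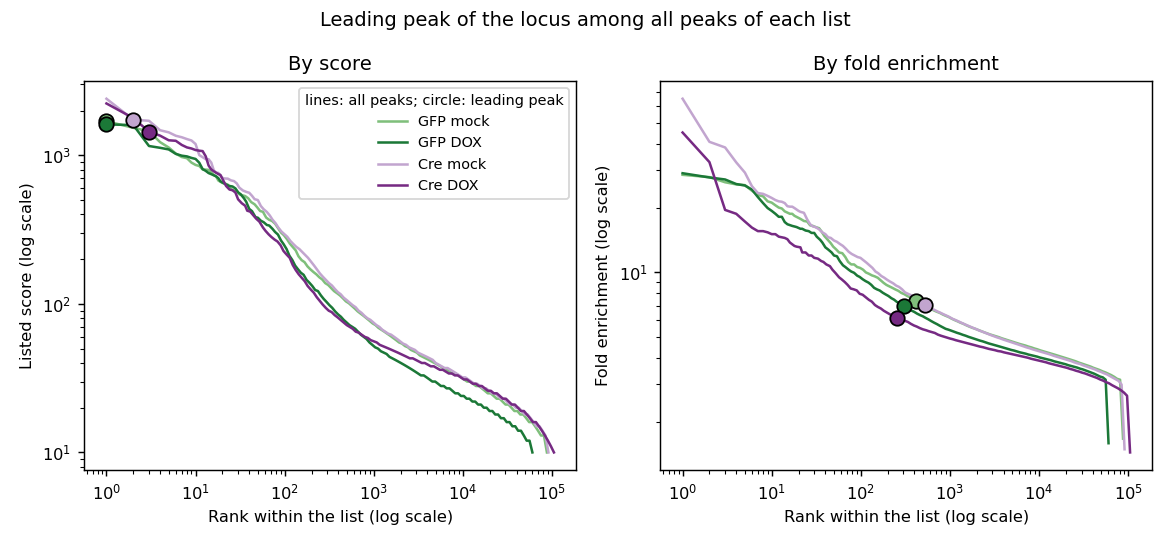
Listed score (left) and fold enrichment (right) of all peaks of each list against their rank within that list, on log axes, with 1 line for each of the 4 lists and a circle for the main peak of the locus. The circles sit at ranks 1 to 3 by score and at ranks 257 to 528 by fold enrichment.

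All other peaks of the locus were weak. GFP mock had 8 with scores of 13 to 21 and GFP DOX 7 with scores of 12 to 22. Cre mock had 6 with scores of 15 to 28 and Cre DOX 5 with scores of 10 to 34, and their fold enrichment ranged from 2.60 to 4.11. The median score of the whole lists was 18, 17, 19 and 18. In the top decile of score, which began at 33, 28, 33 and 31, the locus had only its main peak in 3 lists, and Cre DOX had 2 more. The score of the main peak therefore stood far above its surroundings, with nothing between 34 and 1445.

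**Figure D2:**
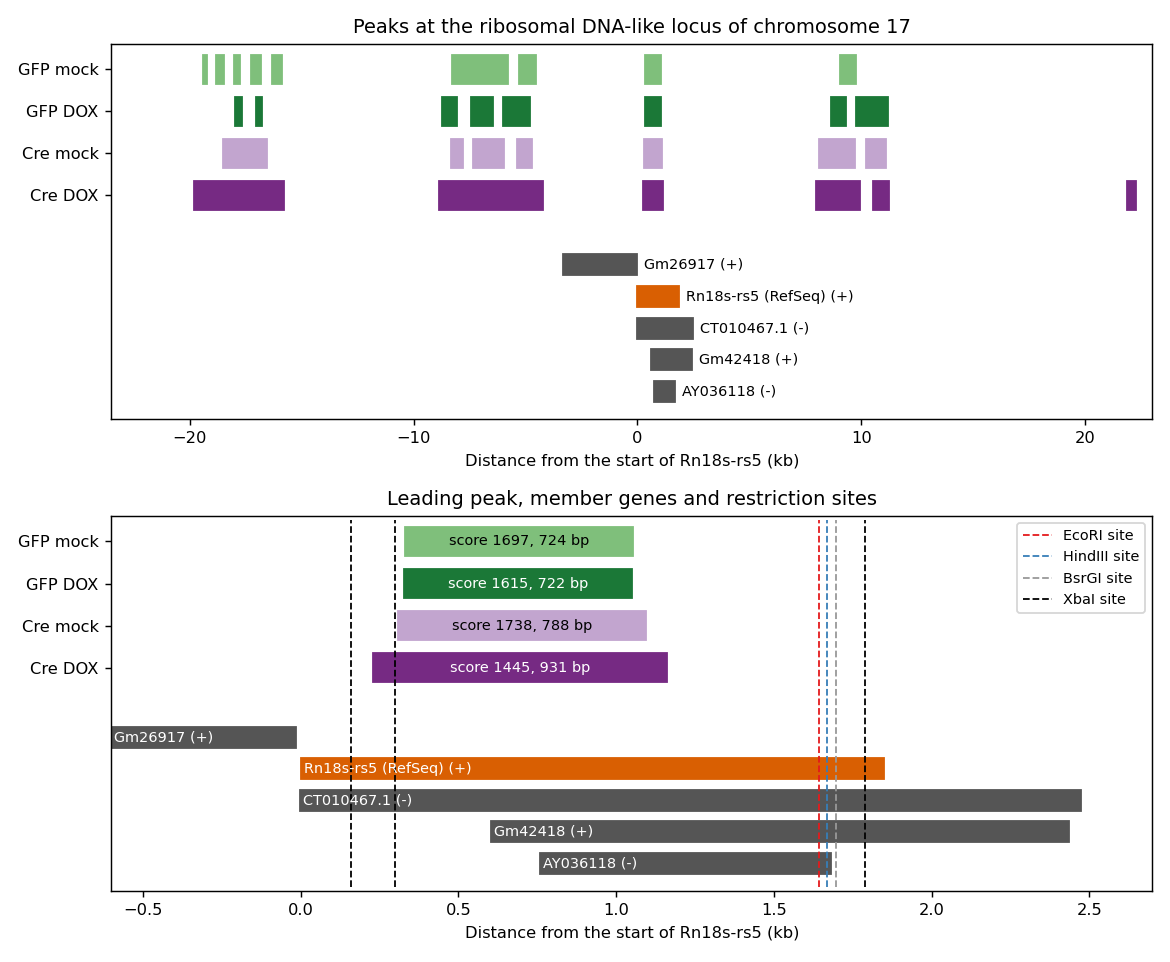
Peaks of the 4 lists (coloured bars) and genes (grey, with the RefSeq small subunit sequence in orange) against distance in kb from the start of Rn18s-rs5, for the locus with its flanks (upper panel) and around the main peak (lower panel). Dashed lines in the lower panel are sites of 4 of the 5 restriction enzymes. The main peak falls within the small subunit sequence in each list, and Gm26917 holds no peak.

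Of the member genes, 3 were covered by the main peak and 1 was not covered at all. CT010467.1 contained the whole peak, which took up 724 bp (mock) and 722 bp (DOX) of its body in GFP cells and 788 bp (mock) and 931 bp (DOX) in Cre cells. The peak crossed the start site of Gm42418 and covered 450, 447, 492 and 557 bp of its body in the same order. It covered 295, 292, 337 and 402 bp of AY036118, all of it in the 3′ part, since the start site of this gene lay 521 to 631 bp beyond the peak. All covered bases of these 3 genes were exonic. They share 1 peak and are not separate observations.

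Gm26917 had 0 bp of 3329 bp covered in every list, although it directly precedes the small subunit sequence. A start site of Gm26917 lay within 1 kb of a peak in Cre DOX only, and that peak was the weak one to its left. A body peak was thus present in 3 of 4 members in each list. Over all annotated genes the share with a body peak was 27.9% (mock) and 22.3% (DOX) in GFP cells and 30.6% (mock) and 26.9% (DOX) in Cre cells, and nothing is read from the comparison because the members were picked on these peaks. Among genes within the members' range of length it was 9.97%, 8.21%, 12.4% and 9.59%.

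The 20 kb flanks held weak peaks at 3 places shared by all lists. The place nearest to the members, chr17:39837500-39842155, ended 858 bp before Gm26917 and was covered over 3310 bp (mock) and 2818 bp (DOX) in GFP cells and 2597 bp (mock) and 4656 bp (DOX) in Cre cells. The other places were chr17:39826547-39830565, covered over 1718, 571, 1936 and 4019 bp, and chr17:39854341-39857604, covered over 717, 2097, 2518 and 2648 bp in the same order. At all 3 places the Cre DOX list covered most, and the nearest place, which held 2 or 3 separate peaks in the other lists, was covered by 1 peak in Cre DOX. A further peak of 407 bp at chr17:39868227-39868633, with a score of 10, was present in Cre DOX only. The shared places were 86.4% to 98.4% repeat-masked, with GC contents of 34.9% to 37.5%.

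Peaks covered 14.1% (mock) and 13.6% (DOX) of the locus in GFP cells and 17.1% (mock) and 27.6% (DOX) in Cre cells. The covered share of chromosome 17 was 2.27%, 2.18%, 3.16% and 4.85% in the same order. The rise in Cre DOX thus went with a wider cover of the whole chromosome, and the locus carried more cover than the chromosome in each list. Peaks of the locus numbered 131 to 196 per Mb against 35.3 to 52.6 per Mb on chromosome 17.

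Sharing between lists was high in number but loose in position outside the main peak. A peak in each of the other 3 lists was overlapped by 6 of 9 (mock) and 7 of 8 (DOX) locus peaks in GFP cells and 6 of 7 (mock) and 4 of 6 (DOX) in Cre cells. Over all peaks of a list this share was 19.1% (mock) and 26.8% (DOX) in GFP cells and 17.8% (mock) and 16.3% (DOX) in Cre cells. The locus counts include the main peak, on which the locus was picked. Its other peaks had median widths of 458, 694, 1150 and 1940 bp, against 295, 351, 343 and 513 bp over the lists. Wider peaks meet an overlap of 1 bp more easily, so nothing is read from the comparison. When an overlap of at least 50% of both peaks was asked for, 1 locus peak in each list was left, the main peak. It was therefore the single peak of the locus that met this stricter limit. With an overlap of 50% of the shorter peak, 5 (mock) and 5 (DOX) were left in GFP cells and 5 (mock) and 4 (DOX) in Cre cells.

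The edges of the main peak were set beside the cut sites of the 5 restriction enzymes used before immunoprecipitation, because these bound the fragments that S9.6 could pull down. The left edge lay 30 bp (mock) and 29 bp (DOX) after an XbaI cut in GFP cells and 8 bp after it in Cre mock, while the peak of Cre DOX ran across that site. This left edge, chr17:39846634-39846703, is printed with the XbaI site in capitals. The right edge fell well short of the next site, EcoRI, by 591, 594, 549 and 484 bp. That end of the fragment, chr17:39847968-39848033, is printed with the EcoRI site in capitals.
Left edge: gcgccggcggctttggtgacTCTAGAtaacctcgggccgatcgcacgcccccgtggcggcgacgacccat
Right end: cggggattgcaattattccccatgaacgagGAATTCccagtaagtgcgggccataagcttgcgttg

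The XbaI to EcoRI fragment is 1344 bp long (chr17:39846655-39847998), and the peak covered 53.9% (mock) and 53.7% (DOX) of it in GFP cells and 58.6% (mock) and 64.0% (DOX) in Cre cells. The peak thus filled the left part of its fragment and not the right. Upstream, beyond a short fragment between this and an earlier XbaI site, lies a HindIII to XbaI fragment of 4777 bp that holds Gm26917 and the start of the small subunit sequence, and of this 105, 0, 0 and 419 bp were covered, all at its far left end. Among all peaks of a list, 73.2% (mock) and 64.2% (DOX) in GFP cells and 67.9% (mock) and 49.8% (DOX) in Cre cells lay within 1 restriction fragment.

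In base composition the core was rich in CpG rather than extreme in GC. It had 55.1% GC, above 97.95% of the 3671550 windows of 721 bp without gaps in the genome, whose median was 41.5%. Its ratio of observed to expected CpG was 1.09, above 99.99% of windows, against a median of 0.156. Only 2.64% of its bases were repeat-masked, while the median peak was masked over 86.5% (mock) and 93.8% (DOX) of its length in GFP cells and 64.9% (mock) and 95.6% (DOX) in Cre cells. The 3 shared places of the flanks were masked to a high degree like the median peak, whereas the weak peak found in Cre DOX only was masked over 11.3% of its length.

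Predicted G-quadruplexes, in which runs of G fold into a stack that often accompanies R-loops, were more frequent in the uncovered Gm26917 than under the peak. Gm26917 had 69.1% GC and 15 stretches past a G4Hunter score of 1.5, filling 15.8% of its bases. The core had 1 such stretch, filling 6.10% of its bases, with a highest score of 1.84, and none by a search for 4 runs of at least 3 G. The window of Gm26917 with the largest score, 2.24, is printed with its 25 bases in capitals, to show what kind of sequence carried no peak.
Gm26917, chr17:39844988-39845047: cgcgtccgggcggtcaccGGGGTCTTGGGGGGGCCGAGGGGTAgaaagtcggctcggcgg
Of genome windows of the core's length, 31.9% held a stretch past 1.5, and of all peaks 22.7% to 28.2%. The windows were 721 bp long and the median peak of a list 295 to 513 bp. A longer interval holds a stretch more easily, so these shares do not show whether peaks are poor in predicted G-quadruplexes.

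**Figure D3:**
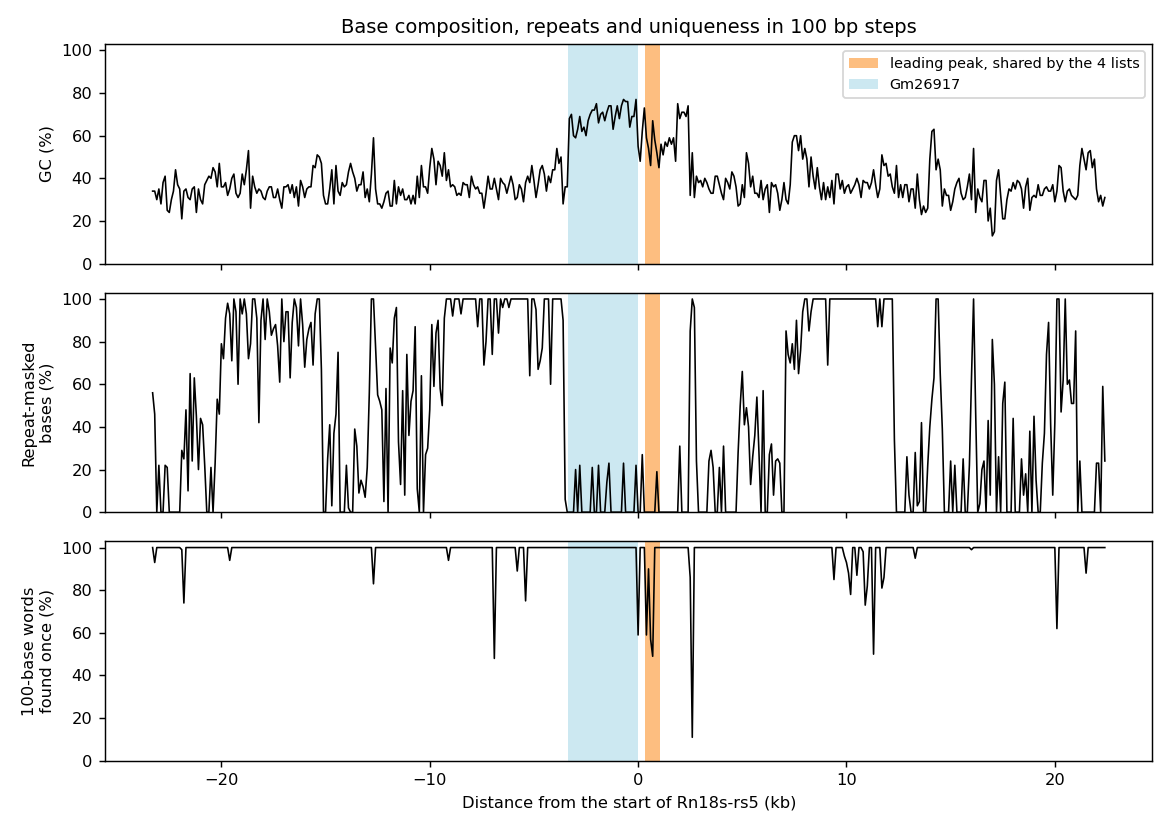
GC content, repeat-masked bases and 100-base words found once in the reference, each in percent, in steps of 100 bp against distance in kb from the start of Rn18s-rs5, with the core of the main peak in orange and Gm26917 in blue. GC is highest over Gm26917, and the share of words found once falls within the core, the stretch of lowest uniqueness in the member bodies.

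Part of the core cannot be told from other places by reads of 100 bases, the length sequenced. Of its 622 words of 100 bases, 76.7% occurred once in the reference, and the others had 1 further match. The part of Rn18s-rs5 after the core and the whole of Gm26917 were 100% unique at this length. With words of 50 bases, 42.3% of the core was unique, against 92.0% of the part after it. The main peak therefore lay on the least unique part of the member bodies, and it is not known from the sources used here how reads with several matches were placed.

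Sequences related to the member bodies were found elsewhere in the genome, and nearly all that derive from the small subunit rRNA carried a peak of their own. With matches of at least 200 bp and 90% identity there were 5 copies outside the locus, and the 4 from Rn18s-rs5 carried a peak in all 4 lists. With the wider limits of at least 100 bp and 80% identity, used from here on, there were 24 copies outside the locus, of which 19 matched Rn18s-rs5 (115 to 901 bp, 82.1% to 100% identical) and 5 matched Gm26917 (112 to 413 bp, 82.8% to 92.0%). Of the small subunit copies, 18 (mock) and 17 (DOX) carried a peak in GFP cells and 19 (mock) and 16 (DOX) in Cre cells. Of genome windows of 721 bp, which are longer than all but 1 of these copies, 3.7% (mock) and 2.79% (DOX) held a peak in GFP cells and 4.19% (mock) and 6.1% (DOX) in Cre cells. A peak was present in all 4 lists at 16 of the 19 copies. The 19 copies lay on 13 chromosomes, 16 of them between genes and 3 in introns, those of Fam163b, Clasp2 and Gnb1l.

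Copies of Gm26917 behaved otherwise. Of the 5, 4 had no peak in any list, and the longest, chr11:104072709-104073121, had a peak with a score of 15 (mock) and 17 (DOX) in GFP cells and of 38 in Cre mock, and none in Cre DOX. Copies of the small subunit sequence thus mostly carried peaks and copies of Gm26917 mostly lacked them. With so few copies, and with copies that differ in length, this contrast is given as counts.

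Peaks on the small subunit copies were strong for their lists. Their median score was 102 (mock) and 66 (DOX) in GFP cells and 119 (mock) and 48.5 (DOX) in Cre cells, which placed the median copy within the best 0.579%, 1.06%, 0.436% and 1.52% of peaks. In the top decile were 18, 16, 16 and 9 of them. None scored as high as the main peak, but 7, 6, 10 and 3 of them had a higher fold enrichment. They were 127 to 1241 bp wide, and the median copy was covered over 87.8% to 98.1% of its length. The number of copies with a peak and the number in the top decile were both lowest in Cre DOX, the list with the most peaks.

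The closest long copy was that of chromosome 6 (chr6:3200770-3201670, between genes), which matched 901 bp of Rn18s-rs5 from 3 bp before the core to 177 bp after it at 98.2% identity. They differed at 16 bases, 8 of them in the 721 bp of the core. Its peak scored 427 (mock) and 288 (DOX) in GFP cells and 368 (mock) and 223 (DOX) in Cre cells, and its fold enrichment was 17.7, 13.8, 15.9 and 10.5. Score was thus lower and fold higher than at the chromosome 17 core in every list, in which the fold did not exceed 7.35.

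Copies that do not contain the core carried peaks as well. Of the 19 small subunit copies, 7 held no base of it, and 6 of these had a peak in all 4 lists, as had 10 of the other 12. The copy on chromosome 1 (chr1:56782048-56782396, 95.7% identical) matches the small subunit sequence after the core, and scored 418 (mock) and 208 (DOX) in GFP cells and 253 (mock) and 154 (DOX) in Cre cells. The copy on chromosome 10 (chr10:82955117-82955446, 93.2%), of which 52 bp match the core, scored 417, 188, 340 and 125. The copy on chromosome 16 in Gnb1l (chr16:18533192-18533331), identical over 140 bp to the first part of the small subunit sequence, scored 73, 66, 119 and 24. At the chromosome 17 locus itself the parts matched by the copies of chromosomes 1 and 16 lay outside the main peak in every list. On chromosome 19 a copy of 381 bp within the core (chr19:13054731-13055111, 91.6%) scored 104, 28, 88 and 26. More diverged copies with a peak in all 4 lists included chr9:113756349-113756928 (82.3%) and chr7:97549583-97549950 (82.1%). The copy chr2:70951950-70952064 (82.1%) had a peak in Cre mock only. The first 80 bases of the chromosome 19 copy are printed under the matching bases of the core. Capitals mark the bases at which this copy differs.
Core, chr17:39846902-39846981: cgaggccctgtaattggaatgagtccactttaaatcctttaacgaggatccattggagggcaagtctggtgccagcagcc
Chromosome 19 copy, chr19:13054731-13054810: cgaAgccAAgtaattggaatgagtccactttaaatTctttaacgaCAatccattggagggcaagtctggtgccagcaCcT

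**Figure D4:**
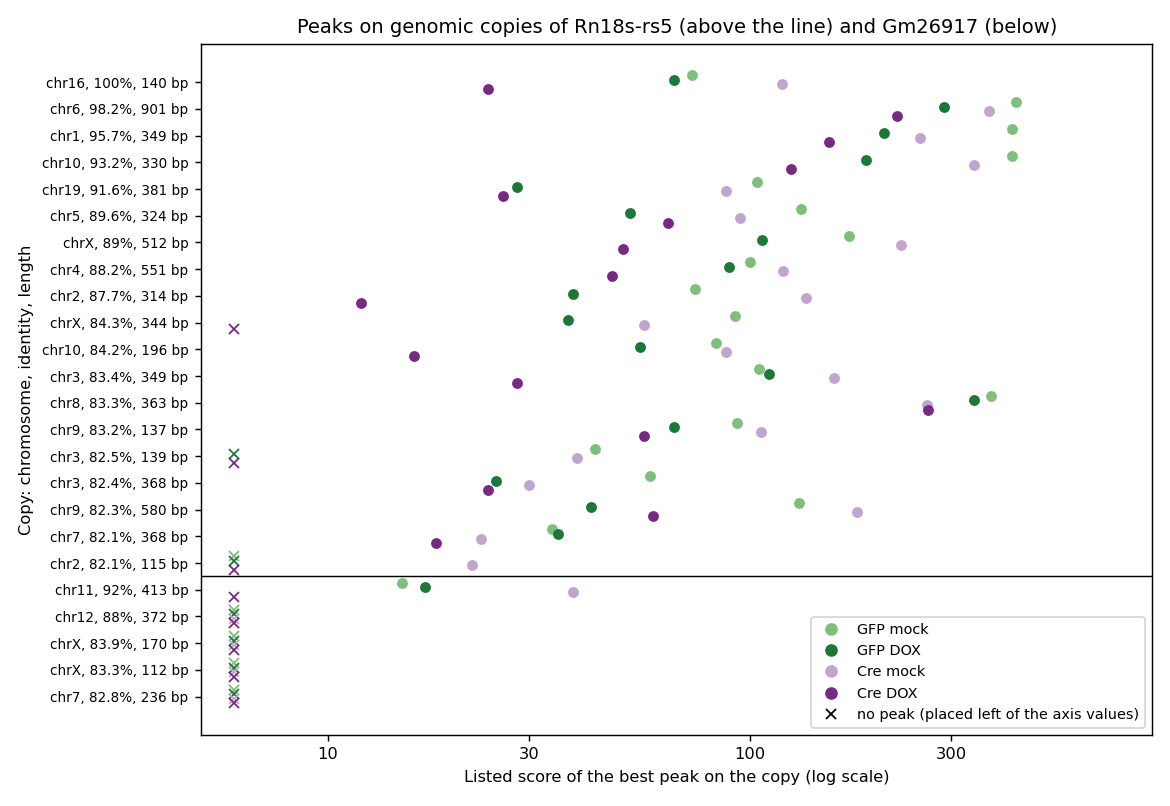
Score of the best peak on each of the 24 copies (log axis), with 1 coloured point for each of the 4 lists and a cross where a list had no peak. The 19 copies of Rn18s-rs5, ordered by identity, stand above the line and nearly all carry points, and the 5 copies of Gm26917 below the line carry 3 points in all.

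The genes whose peak ranks were most like those of Gm42418, by the summed absolute difference of log10 rank over the 4 lists, were mitochondrial. Of 16 mitochondrial genes tied at a distance of 2.03, the rule named the first 5 by alphabet, mt-Co1, mt-Nd1, mt-Nd2, mt-Rnr1 and mt-Rnr2. All 16 lay in part or wholly under 1 peak of 6472 to 6515 bp from the first base of the mitochondrial chromosome. Its score was 1028 (mock) and 1156 (DOX) in GFP cells and 1476 (mock) and 2235 (DOX) in Cre cells, at ranks 6, 3, 4 and 1. mt-Rnr1 and mt-Rnr2 code for the mitochondrial rRNAs. The next gene beyond the tie, named after its values were seen, was Il1rapl1 on chromosome X (distance 2.34), followed by AC166748.2 on chromosome 19 (2.48) and Lars2 on chromosome 9 (2.91). The peaks in Il1rapl1 and AC166748.2 were 170 to 394 bp wide and ranked 3 to 11.

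Other annotated rRNA genes had a peak in a minority of cases. Of 353 genes of type rRNA outside the locus, a body peak was present in GFP cells in 83 (mock, 23.5%) and 59 (DOX, 16.7%) and in Cre cells in 88 (mock, 24.9%) and 41 (DOX, 11.6%). Each of these shares was below that of all genes given earlier. Each was above that of genes within the members' range of length, 9.97%, 8.21%, 12.4% and 9.59%. Neither background was matched to the lengths of the rRNA genes, so no lack or excess is read from this. A body peak in the top decile was present in 57, 43, 58 and 18 of the 353 rRNA genes in the same order (16.1%, 12.2%, 16.4% and 5.10%), beside 6.49%, 4.81%, 8.03% and 5.1% of all annotated genes. A promoter peak of any score, within 1 kb of a start site, was present in 30.9% (mock) and 24.1% (DOX) of the 353 in GFP cells and 30.3% (mock) and 21.2% (DOX) in Cre cells, above the shares of 18.3%, 14.5%, 21.3% and 17% over all annotated genes. A promoter peak in the top decile was present in 75, 62, 74 and 39 of them (21.2%, 17.6%, 21.0% and 11.0%), beside 2.91%, 2.42%, 4.08% and 2.22% of all annotated genes. By the rule for naming them, n-R5s101 on chromosome 8 scored 537 (mock) and 434 (DOX) in GFP cells and 502 (mock) and 134 (DOX) in Cre cells, and n-R5s170 on chromosome 5 scored 123, 129, 312 and 38. Gm24312 scored 243, 100 and 112 in the first 3 lists and had no peak in Cre DOX, and n-R5s146 had a peak in Cre mock only, with a score of 305. Within their lists, n-R5s101 ranked 34, 41, 47 and 176 and n-R5s170 ranked 349, 209, 89 and 4262 by score.

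Genes that code for the machinery of rDNA transcription and rRNA processing were read from a list of 59, made up of 13 subunits of RNA polymerase I, 10 of its factors and 36 processing factors. A promoter peak, within 1 kb of a start site, was present in 25 (mock, 42.4%) and 28 (DOX, 47.5%) of them in GFP cells and 42 (mock, 71.2%) and 31 (DOX, 52.5%) in Cre cells. Over all annotated genes this share was 18.3%, 14.5%, 21.3% and 17% in the same order, and over the 21951 protein-coding genes, a background added after seeing the data, it was 30.8%, 25.8%, 36.7% and 27.6%. For body peaks the listed genes had 47.5%, 59.3%, 78% and 71.2%, against 51.8%, 43.5%, 57.5% and 50.7% of protein-coding genes, so that in GFP mock the list lay below this background. A promoter peak in the top decile was present in 3, 6, 6 and 5 listed genes (5.08%, 10.2%, 10.2% and 8.47%), beside 2.91%, 2.42%, 4.08% and 2.22% of all annotated genes. This top-decile share was not computed for protein-coding genes alone, whose share at any score was the higher of the 2 backgrounds in each list. A promoter peak in all 4 lists was present in 15 listed genes (25.4%), beside 7.15% of all annotated and 13.5% of protein-coding genes. No difference between the list and its background was tested.

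Scores at these promoters were far below that of the rDNA-like core. The best placed was Ubtf, which codes for the upstream binding factor of RNA polymerase I, with a score of 52 (mock) and 51 (DOX) in GFP cells and 59 (mock) and 65 (DOX) in Cre cells. Ncl, for nucleolin, scored 31, 29, 47 and 62, and Npm1, for nucleophosmin, 28, 30, 44 and 48. Utp4, Polr1c, Bop1, Gar1 and Sirt7 completed the 8 named by the rule, with scores of 17 to 58. No score of the 8 reached that of the weakest main peak, 1445.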

How the data were processed

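DRIP libraries of 4 groups were compared by position, and the 4 inputs were not analysed here. The authors trimmed single-end reads, aligned them to mm10, filtered the alignments and called peaks with MACS2 for each library. Whether the inputs were the control, and how reads with several matches were placed, is not given in the sources used here. The stated command asked for narrow peaks, but the deposited lists are in broad format and were used as such. The deposited lists give a score (10 times −log10 q, rounded down), a fold enrichment (a ratio to local background), a −log10 p-value and a −log10 q-value, averaged over the peak and not normalised between lists. Broad calling joins neighbouring peaks and lowers averaged values. Read depth is unknown, and precision is limited by 1 library a group.

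From these lists, overlaps of 1 bp, covered bases and ranks within each list were computed with Python 3.11.15, numpy 2.4.6, pandas 2.3.3 and numba 0.67.0. Top-decile peaks scored no lower than the 90th percentile of their list. Sequence was read from GRCm38.p6, whose chromosome lengths matched the lists. Copies were found with blastn 2.17.0 (e-value up to 1e-05, matches within 1000 bp joined), and predicted G-quadruplexes with G4Hunter (window of 25 bases, runs scored up to 4, both strands). The functions for overlaps, covered bases, cut sites, predicted G-quadruplexes and word counts were tested on simulated data. No test was run between groups, and nothing says that the libraries were separate cultures. The members and gene lists were chosen with earlier results of these data known. Genes named beside the members were at most 6 rRNA genes by best rank, the 8 listed genes with the best mean rank among those with a promoter peak in all lists, and the 5 genes closest to Gm42418 in rank. Alternatives were other peak filters, extensions, ranking measures, overlaps, copy limits and word lengths.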

Additional observations from a re-analysis of the deposited data

Results flagged for a closer look

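The covered length of the locus moved in opposite directions with doxycycline in the GFP and Cre cells. It fell by 261 bp in GFP cells, from 6469 bp in GFP mock to 6208 bp in GFP DOX, and rose by 4822 bp in Cre cells, from 7839 bp in Cre mock to 12661 bp in Cre DOX. The width of the main peak did likewise, falling by 2 bp in GFP cells (724 to 722 bp) and rising by 143 bp in Cre cells (788 to 931 bp). With 1 library a group neither difference was tested. The covered share of chromosome 17 moved the same way, from 2.27% to 2.18% in GFP cells and from 3.16% to 4.85% in Cre cells, and its part in the result was not tested. The peak in Il1rapl1 was 173 (mock) and 170 bp (DOX) wide in GFP cells and 227 (mock) and 380 bp (DOX) in Cre cells. That in AC166748.2 measured 181, 182, 233 and 394 bp, and that in Lars2 904, 568, 621 and 643 bp in the same order. A wider peak in Cre DOX than in Cre mock was thus not particular to the locus. The number of locus peaks was 9 (mock) and 8 (DOX) in GFP cells and 7 (mock) and 6 (DOX) in Cre cells. When each list was reduced to its best peaks, as many as in the shortest list, the number was 3 (mock) and 8 (DOX) in GFP cells and 6 (mock) and 4 (DOX) in Cre cells, so the direction in GFP cells turned.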

How the results depend on the processing

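No paired analysis was possible because each group had 1 library, and leaving out a replicate was not possible for the same reason. The 30 peaks of the locus over the 4 lists became 6 in the top decile of score, 13 with a −log10 q of at least 2, 4 with a −log10 q of at least 5 and 21 with equal numbers of peaks per list, where the order of GFP mock and GFP DOX turned (3 and 8, against 9 and 8). With no extension of the gene bodies there were 4, with 5 kb 13 and with 100 kb 77. The lowest placing of the main peak over the lists, rank 3 by score, was rank 3 by −log10 p, 528 by fold enrichment, 27034 by width and 1 on chromosome 17. Locus peaks shared by all lists numbered 23, or 19 with an overlap of 50% of the shorter peak and 4 with 50% of both peaks. Pairs of a member gene and a list with a body peak were 12 with all peaks and 12 in the top decile. The core held 1 predicted G-quadruplex at a score of 1.5, 0 at a score of 2 and 0 by the search for 4 runs of G. Copies with a peak, counted once per list, were 19 of 20 for matches of at least 200 bp and 90% identity, 73 of 96 for at least 100 bp and 80%, and 4 of 4 for at least 500 bp and 95%. Promoter peaks of the 59 listed genes fell from 126 over the lists to 20 in the top decile. The share of protein-coding genes with a body peak was 43.5% to 57.5%. The changes follow from fewer peaks, shorter or longer intervals or another measure. Read depth, unknown here, limits every count of weak peaks.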
